A study of Rattus norvegicus with 10 samples.

Results

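The genes examined here are 6 whose liver signal was much lower in dosed than in vehicle samples: Cadps, Sez6, Mtmr7, Nrep, Tsc22d1 and Slc34a2. They were chosen by that measured difference, so their dosed and vehicle values are a description and carry no p-value. Their best-known roles lie outside liver, but in vehicle liver their brightest probe sets lay at the 61.9th to 98.2nd percentile of all probe sets. All 10 probe sets annotated to these 6 genes were followed, of 31042 probe sets and 14217 genes on the array. The vehicle group was 5 liver samples from female Harlan Sprague-Dawley rats given corn oil by gavage (0 mg per kg). The dosed group was 5 liver samples from female rats of the same strain given indole-3-carbinol in corn oil, at 300 mg per kg. Indole-3-carbinol is a compound from cruciferous vegetables whose acid products bind the aryl hydrocarbon receptor. In both groups gavage was on 5 days per week for 13 weeks per the labels, while the series text describes a study of 2 years. Expression was read from whole-liver RNA on 3' expression arrays, 1 per sample, as log2 values made with RMA (robust multi-array average).

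The 6 genes belong to unrelated families. Cadps encodes CAPS1, which primes dense-core vesicles for calcium-triggered release in neurons and endocrine cells, and Sez6 encodes a neuronal membrane protein that shapes dendrites and is cut by the protease BACE1. Mtmr7 is a myotubularin, a phosphatase that removes the 3-phosphate of inositol lipids and pairs with the inactive homologue Mtmr9. Nrep, also called P311, is a small protein of regenerating neurons and wounds that raises production of TGF-beta. Tsc22d1 encodes a leucine zipper protein first cloned as a transcript stimulated by TGF-beta, in a long and a short form made from separate start sites. Slc34a2 encodes NaPi-IIb, the sodium-phosphate cotransporter of small intestine and of lung alveolar type II cells.

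The RefSeq table of GRCr8 held start-site windows for 4 of the 6 genes, 5 windows in all, since Tsc22d1 had a pair. The 250 bases before the start are shown for Tsc22d1, because its probe sets disagreed, and for Cadps and Slc34a2 as examples of the other genes; the Nrep window is not printed. The letters GCGTG, the core that the aryl hydrocarbon receptor and its partner bind, were searched on both strands and stand in capitals (CACGC where the core is on the opposite strand). The lines below give the upstream Tsc22d1 start (chr15:58159528-58159777, plus strand), the downstream Tsc22d1 start (chr15:58256751-58257000, plus strand), Cadps (chr15:14720476-14720725, plus strand) and Slc34a2 (chr14:62143073-62143322, minus strand), each 5′ to 3′ along the gene.
Tsc22d1 upstream start: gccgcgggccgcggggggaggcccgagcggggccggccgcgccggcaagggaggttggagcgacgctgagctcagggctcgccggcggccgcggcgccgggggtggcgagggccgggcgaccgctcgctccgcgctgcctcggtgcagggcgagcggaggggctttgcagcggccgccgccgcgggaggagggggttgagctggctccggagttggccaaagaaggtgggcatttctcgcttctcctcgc
Tsc22d1 downstream start: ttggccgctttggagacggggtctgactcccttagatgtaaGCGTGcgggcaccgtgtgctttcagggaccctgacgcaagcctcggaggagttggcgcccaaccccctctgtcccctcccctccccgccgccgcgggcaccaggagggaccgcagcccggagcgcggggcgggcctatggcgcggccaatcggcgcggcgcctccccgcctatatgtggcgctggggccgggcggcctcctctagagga
Cadps: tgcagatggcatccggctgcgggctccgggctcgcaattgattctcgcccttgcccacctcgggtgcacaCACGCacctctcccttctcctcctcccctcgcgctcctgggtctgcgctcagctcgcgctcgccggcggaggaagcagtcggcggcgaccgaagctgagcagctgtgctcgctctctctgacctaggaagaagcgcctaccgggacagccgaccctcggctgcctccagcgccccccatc
Slc34a2: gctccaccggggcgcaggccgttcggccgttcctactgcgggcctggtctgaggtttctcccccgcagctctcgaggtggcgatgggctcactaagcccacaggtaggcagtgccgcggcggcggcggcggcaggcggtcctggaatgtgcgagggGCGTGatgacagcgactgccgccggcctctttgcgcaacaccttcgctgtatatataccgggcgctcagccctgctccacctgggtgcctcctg

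GCGTG was in 4 of the 5 windows, once in each. Its first base along the gene lay 209 bases before the downstream Tsc22d1 start, 180 before that of Cadps, 94 before that of Slc34a2 and 57 before that of Nrep, and the upstream Tsc22d1 window held none. Of all 33469 windows of this length, 25.9% held it. The longer form TNGCGTG, which contains GCGTG, was in 0 of the 5 windows and in 4.09% of all windows. The 5 windows were rich in G and C, at 66.4% to 78.4%, where the median over all windows was 51.2%. The windows of Cadps and Slc34a2 lie inside the annotated spans of these genes (chr15:14719078-15173218 and chr14:62123313-62153020). The downstream Tsc22d1 window also lies inside its span (chr15:58159612-58260244), and the upstream window runs across the outer end of that span. The starts used for Cadps, Slc34a2 and Tsc22d1 are thus not at the outer end of the span. The GCGTG matches describe the sequence only, and no binding was measured.

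The brightest probe set of each gene was lower in every dosed array than in every vehicle array. This was so for 6 of the 10 probe sets, and the same 6 passed the limma threshold (adjusted p under 0.05) as lower. Over all probe sets 3.07% had every dosed array below every vehicle array and 2.30% fell past the threshold. Because that difference chose the genes, nothing is read from these counts. The call of Nrep ended without moderated variances, with either RNA quality covariate described further on, and without vehicle 3, dosed 1, dosed 2 or dosed 5, and that of Slc34a2 ended with either covariate. Among the 14217 genes, each followed through its brightest probe set, the 6 held places 8, 9, 11, 12, 13 and 16 in order of depth (Tsc22d1, Cadps, Sez6, Mtmr7, Nrep and Slc34a2). In whole-liver RNA, fewer cells of a type and less RNA per cell cannot be told apart.

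**Figure D1:**
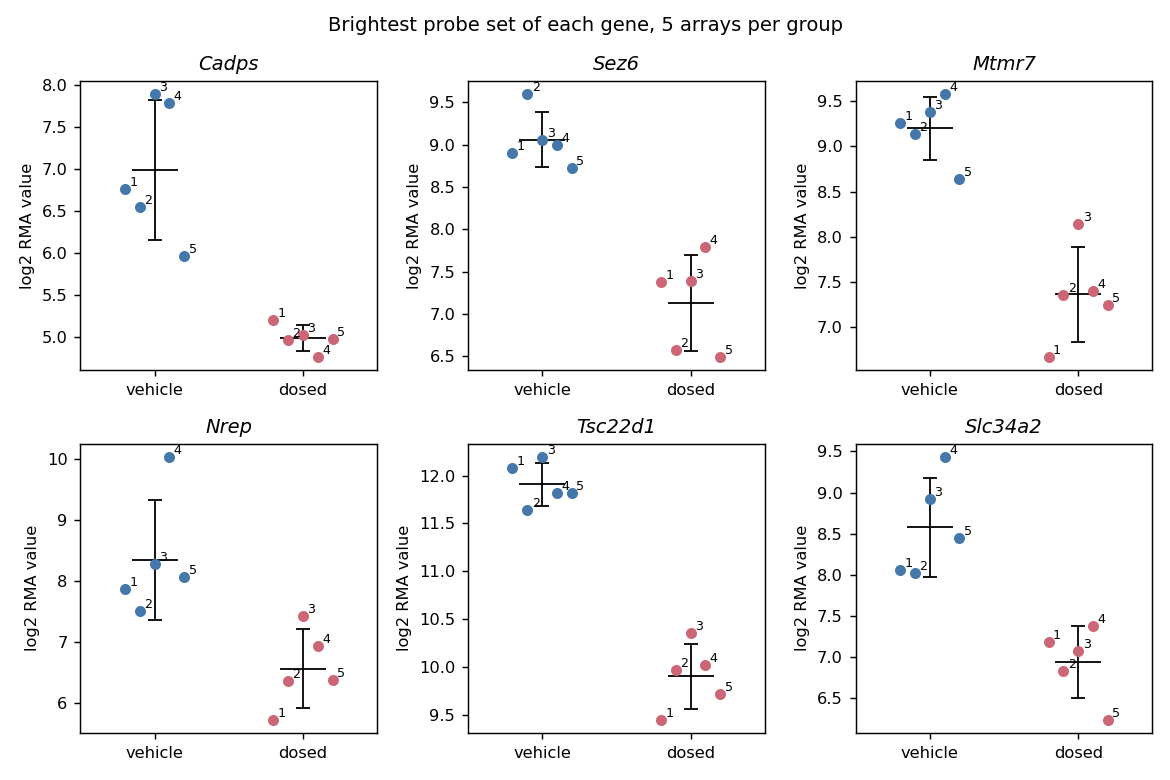
Log2 RMA value (vertical axis, a separate scale per gene) of the brightest probe set of each gene in 5 vehicle and 5 dosed arrays. Points are arrays with their replicate number, and bars are the group mean ± SD. The groups do not overlap in any panel, and the gap is narrowest for Nrep, at 0.08.

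Cadps, the vesicle-priming factor, was low in all dosed arrays and widely spread in vehicle arrays. Its brighter probe set, 1368523_at, read 6.76, 6.55, 7.89, 7.78 and 5.96 in vehicle arrays 1 to 5. In dosed arrays 1 to 5 it read 5.20, 4.96, 5.03, 4.77 and 4.99. Vehicle 3 and vehicle 4 were the high arrays, vehicle 5 was the lowest of its group, and the gap between that array and the highest dosed array was 0.76. The means were 6.99 ± 0.82 (SD, n = 5) and 4.99 ± 0.16 (SD, n = 5), a difference of -1.996 ± 0.303 (SE), or 3.99-fold. The vehicle arrays thus spanned 1.92 on the log2 scale and the dosed arrays 0.43. The vehicle mean lay at the 61.9th percentile of all probe sets and the dosed mean at the 27.6th. The other probe set, 1390754_at, was dim in both groups, at the 9.79th percentile in vehicle arrays. Its groups overlapped (4.10 ± 0.16 against 3.98 ± 0.11, SD, n = 5 each), with a difference of -0.12 ± 0.09 (SE). The mean of both probe sets differed by -1.06, and with the 3' minus 5' difference of beta-actin as a covariate the brighter one differed by -1.34.

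Among 29 genes of regulated exocytosis 26 were measured, of which 0 rose and 2 fell (before adjustment, p was under 0.05 for 1 higher and 2 lower genes). Over all genes 3.32% rose and 3.11% fell past the limma threshold, the shares to set beside the counts of every list below. Ptprn, a membrane protein of dense-core vesicles also known as IA-2, fell from 9.05 ± 0.27 to 8.46 ± 0.18 (SD, n = 5 each), by 0.59 ± 0.13 (SE, limma adjusted p = 0.0171). Vamp2, the vesicle SNARE of synaptic and secretory vesicles, fell by 0.41 ± 0.09 (SE, limma adjusted p = 0.0191), while its dimmer probe set differed by 0.03 ± 0.11 (adjusted p = 0.946). The call of Ptprn ended without dosed 2 (adjusted p = 0.0512), and that of Vamp2 without dosed 1 (0.0514) or dosed 3 (0.0501), so that 1 gene fell in each of these cases. With the 3' minus 5' difference of GAPDH, a measure of RNA quality, in the model, neither passed (Ptprn -0.25 ± 0.17, adjusted p = 0.52, and Vamp2 -0.29 ± 0.14, adjusted p = 0.381). That difference did not overlap between the groups, so these 2 lost calls are not read either way. With the 3' minus 5' difference of beta-actin Ptprn was -0.58 ± 0.17 (adjusted p = 0.111), and with both its probe sets averaged Vamp2 was -0.19 ± 0.08 (adjusted p = 0.252). Cadps2, the closest relative of Cadps, was 7.76 ± 0.165 in vehicle and 7.75 ± 0.155 in dosed arrays (SD, n = 5 each), a difference of -0.01 ± 0.10 (SE, limma adjusted p = 0.986). The median difference of the list was -0.01, and that of all genes 0.00 on the same scale.

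Sez6, the neuronal surface protein, was measured by 1 probe set, 1391032_at. It read 8.91, 9.59, 9.06, 8.995 and 8.73 in vehicle arrays 1 to 5, and 7.38, 6.58, 7.39, 7.79 and 6.49 in dosed arrays 1 to 5. Vehicle arrays kept close together apart from the high vehicle 2, and dosed 2 and dosed 5 lay well below the other dosed arrays. The means were 9.06 ± 0.33 and 7.13 ± 0.57 (SD, n = 5 each), a difference of -1.93 ± 0.24 (SE), or 3.81-fold, with a gap of 0.93 between the groups. Of 8 genes related to Sez6 by family or by its protease, 5 were measured, and 0 rose and 0 fell in limma (before adjustment, p was under 0.05 for 0 higher genes and 1 lower). The relatives Sez6l2 and Sez6l differed by -0.08 ± 0.07 (SE, limma adjusted p = 0.673) and 0.14 ± 0.09 (SE, limma adjusted p = 0.472). Bace1, which encodes that protease, was the lower one, at 6.51 ± 0.19 and 6.29 ± 0.10 (SD, n = 5 each), a difference of -0.22 ± 0.09 (SE, limma adjusted p = 0.243), and is named after its values were seen. Bace2, a related aspartic protease, was 6.88 ± 0.10 and 6.77 ± 0.28 (SD, n = 5 each). The median difference of the 5 was -0.08.

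Mtmr7, the inositol lipid phosphatase, read 9.26, 9.14, 9.38, 9.58 and 8.63 in vehicle arrays 1 to 5 on its 1 probe set, 1374883_at. The dosed arrays read 6.67, 7.36, 8.14, 7.40 and 7.25. Vehicle 5 was low and dosed 3 was high in their groups, and these 2 arrays came within 0.49 of each other. The means were 9.20 ± 0.35 and 7.36 ± 0.53 (SD, n = 5 each), a difference of -1.83 ± 0.23 (SE), or 3.56-fold. Of 24 listed myotubularins and enzymes of 3-phosphoinositides 23 were measured, of which 0 rose (0 higher at an unadjusted p under 0.05) and 1 fell in limma. The fallen gene was Pik3c2g, a class II phosphoinositide 3-kinase with high expression in liver, at 7.25 ± 0.33 and 6.46 ± 0.23 (SD, n = 5 each), a fall of 0.79 ± 0.15 (SE, limma adjusted p = 0.00929). With the 3' minus 5' difference of beta-actin in the model it was -0.65 ± 0.19 (adjusted p = 0.118). Mtmr9, the inactive partner, differed by -0.15 ± 0.11 (SE, limma adjusted p = 0.595), and Mtmr6, a close relative of Mtmr7, by 0.23 ± 0.15 (SE, limma adjusted p = 0.531). Mtmr4 and Mtmr2, the brightest of the list, differed by 0.10 ± 0.12 and 0.08 ± 0.11 (SE), and the median of the 23 was 0.00.

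Nrep, the wound and regeneration protein, had the widest spread of the 6. Its probe set, 1371412_a_at, read 7.88, 7.50, 8.28, 10.04 and 8.07 in vehicle arrays 1 to 5. In dosed arrays 1 to 5 it read 5.72, 6.36, 7.42, 6.94 and 6.36. Vehicle 4 stood 1.76 above the next vehicle array, dosed 3 was the high dosed array, and vehicle 2 and dosed 3 were only 0.08 apart. The means were 8.35 ± 0.99 and 6.56 ± 0.65 (SD, n = 5 each), a difference of -1.79 ± 0.42 (SE), or 3.47-fold, which became -1.37 without vehicle 4. Of 17 listed genes of TGF-beta signalling 14 were measured, of which 0 rose (0 higher at an unadjusted p under 0.05) and 1 fell in limma (3 lower at an unadjusted p under 0.05). Tgfbi, a matrix protein induced by TGF-beta, fell from 11.80 ± 0.04 to 11.26 ± 0.05 (SD, n = 5 each), by 0.54 ± 0.06 (SE, limma adjusted p = 0.000147). The receptor Tgfbr1 differed by -0.13 ± 0.10 (SE, limma adjusted p = 0.612), 9 of the 14 were lower in dosed arrays, and their median was -0.12.

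Tsc22d1 was read by 4 probe sets, and the groups stood apart on 1 of them. The bright one, 1398759_at, read 12.08, 11.64, 12.20, 11.82 and 11.82 in vehicle arrays 1 to 5. It read 9.45, 9.97, 10.35, 10.03 and 9.71 in dosed arrays 1 to 5. All vehicle arrays were at least 1.29 above all dosed arrays, the widest gap of the 6 genes, with means of 11.91 ± 0.22 and 9.90 ± 0.34 (SD, n = 5 each). The difference was -2.01 ± 0.15 (SE), or 4.02-fold, from the 98.2nd percentile of probe sets. The other probe sets overlapped between groups and differed by 0.16 ± 0.11 (1378081_at), 0.00 ± 0.10 (1381257_at) and -0.01 ± 0.07 (1392438_at, SE, n = 5 per group). Of these, 1392438_at had means of 7.21 ± 0.12 and 7.20 ± 0.10 (SD, n = 5 each). In vehicle arrays it lay at the 65.2nd percentile of probe sets, 1381257_at at the 41.0th and 1378081_at at the 32.5th. The annotation ties the bright probe set to a RefSeq mRNA and the other 3 to other GenBank sequences. Which start site or form each probe set reads is not given in the sources used here and was not tested. The mean of the 4 differed by -0.46.

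**Figure D2:**
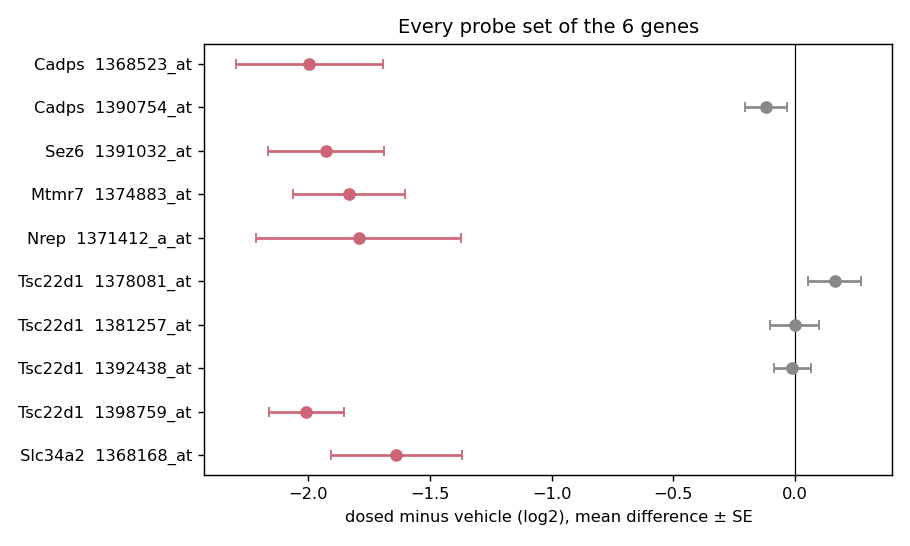
Difference between dosed and vehicle means (horizontal axis, log2, ± SE from the limma fit, n = 5 per group) for every probe set of the 6 genes; the brightest probe set of each gene is red and the others grey. The 6 red points lie between -2.01 and -1.64, and the 4 grey points between -0.12 and 0.16.

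In the TSC22 family and its kinase partners 8 of 8 genes were measured, and 0 rose and 0 fell in limma (before adjustment, p was under 0.05 for 1 higher gene and 1 lower). Tsc22d3, the glucocorticoid-induced member known as GILZ, differed by -0.24 ± 0.09 (SE, limma adjusted p = 0.212). Tsc22d2 differed by 0.03 ± 0.17 (SE, limma adjusted p = 0.968) and the brighter probe set of Tsc22d4 by -0.01 ± 0.11 (SE, limma adjusted p = 0.977). Wnk1, a kinase of cell volume control, was 10.45 ± 0.07 and 10.40 ± 0.12 (SD, n = 5 each). The median difference of the 8 was -0.04.

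Slc34a2, the phosphate importer, read 8.06, 8.02, 8.93, 9.43 and 8.45 in vehicle arrays 1 to 5 on its 1 probe set, 1368168_at. The dosed arrays read 7.19, 6.83, 7.08, 7.37 and 6.24. Vehicle 4 and vehicle 3 were high, dosed 5 was low, and 0.65 separated the groups. The means were 8.58 ± 0.60 and 6.94 ± 0.44 (SD, n = 5 each), a difference of -1.64 ± 0.27 (SE), or 3.11-fold.

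Of 19 listed genes of phosphate transport and its control 18 were measured, of which 3 rose, 2 fell and 13 did not pass the limma threshold. The shares of all genes that rose and fell were 3.32% and 3.11%. Slc20a1, the widely expressed sodium-phosphate importer PiT-1, rose from 8.68 ± 0.22 to 9.66 ± 0.33 (SD, n = 5 each), by 0.99 ± 0.15 (SE, limma adjusted p = 0.00205), or 1.98-fold. Its relative Slc20a2, PiT-2, fell by 0.38 ± 0.07 (SE, limma adjusted p = 0.00782), while its dimmer probe set differed by -0.26 ± 0.12 (adjusted p = 0.303) and the average of both by -0.32 ± 0.09 (adjusted p = 0.0579). Slc17a3 and Slc17a1, organic anion transporters first described as phosphate carriers, rose by 0.66 ± 0.12 (SE, limma adjusted p = 0.00618) and 0.50 ± 0.11 (SE, limma adjusted p = 0.0194), and Slc37a4, the glucose 6-phosphate transporter of the endoplasmic reticulum, fell by 0.64 ± 0.10 (SE, limma adjusted p = 0.00227). The kidney members of the Slc34 family did not pass: the brighter probe set of Slc34a1 differed by -0.06 ± 0.08 (SE, limma adjusted p = 0.817) and Slc34a3 by 0.00 ± 0.08 (SE, limma adjusted p = 0.992). The median of the 18 was -0.04. The GAPDH difference did not overlap between the groups, so a model with it cannot tell the dose from RNA quality. With the GAPDH difference in the model 0 of the 18 rose and 0 fell: Slc20a1 was 0.78 ± 0.24 (adjusted p = 0.168), Slc37a4 -0.49 ± 0.16 (0.179), Slc20a2 -0.37 ± 0.12 (0.177), Slc17a3 0.32 ± 0.16 (0.371) and Slc17a1 0.17 ± 0.14 (0.59). Slc17a1 also lost its call when dosed 1 (adjusted p = 0.0536) or dosed 2 (0.0529) was left out.

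**Figure D3:**
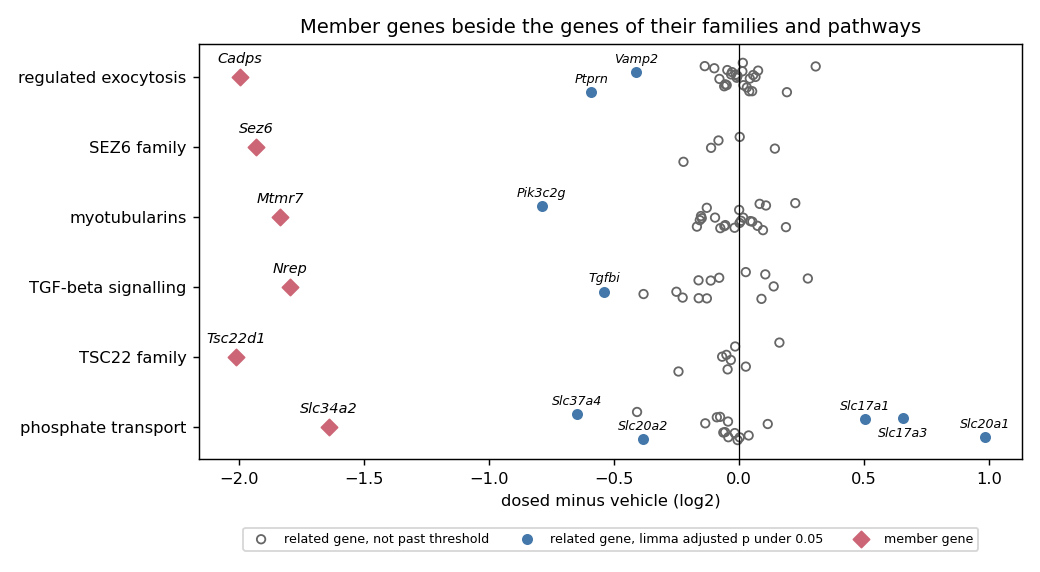
Difference between dosed and vehicle means (horizontal axis, log2) for the genes of each related list, with the member gene of that list as a red diamond. Filled blue points passed the limma threshold and open points did not. The related genes lie between -0.79 and 0.99, and all 6 red diamonds lie at -1.64 or below. The 6 genes were chosen for deep falls, so this separation follows from the choice and nothing is read from it.

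Over the 6 lists, 94 of 105 different related genes were measured, of which 3 rose and 6 fell, or 3.19% and 6.38%, beside 3.32% and 3.11% of all genes.

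The 6 genes did not follow a single order of the arrays. Vehicle 3 or vehicle 4 held the highest vehicle value of 5 of the 6 genes, Sez6 being highest in vehicle 2, and vehicle 2 or vehicle 5 held the lowest of all 6. Among dosed arrays, dosed 3 was highest for Mtmr7, Nrep and Tsc22d1, dosed 4 for Sez6 and Slc34a2, and dosed 1 for Cadps. Dosed 1 was at the same time the lowest for Mtmr7, Nrep and Tsc22d1. The vehicle arrays had the larger SD for Cadps, Nrep and Slc34a2 and the dosed arrays for Sez6, Mtmr7 and Tsc22d1.

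**Figure D4:**
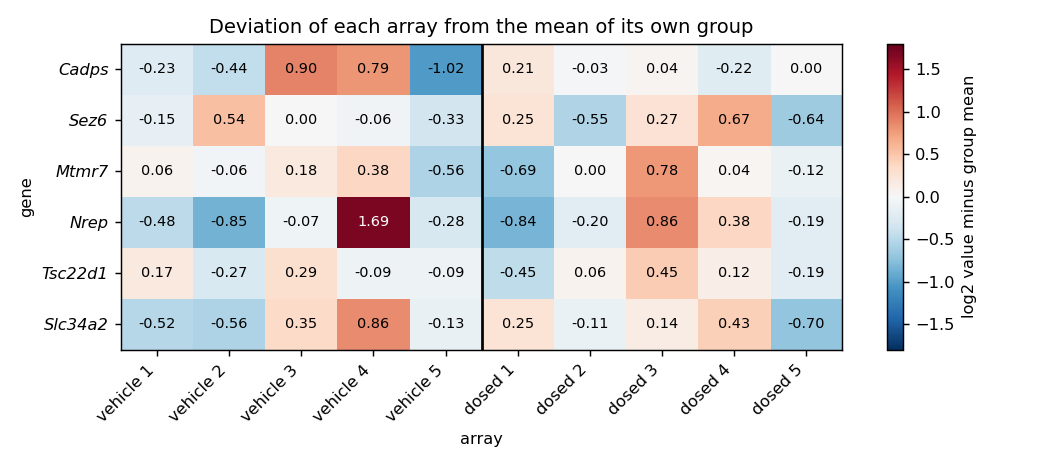
Log2 value minus the mean of the array's own group (colour scale and printed numbers) for the brightest probe set of the 6 genes (rows) in the 10 arrays (columns). The largest deviation is that of Nrep in vehicle 4, at 1.69, and in dosed arrays Mtmr7, Nrep and Tsc22d1 are lowest in dosed 1 and highest in dosed 3.

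Likeness was measured as the root mean square difference between profiles over the 10 arrays, each taken as log2 value minus its own vehicle mean. Among the 15 pairs of the 6 genes it ran from 0.29 for Mtmr7 and Tsc22d1 to 0.85 for Sez6 and Nrep, with a median of 0.55. Of all genes, Mtmr7 and Tsc22d1 were each the other's nearest, and Tsc22d1 was also the nearest to Sez6 (0.48). Mtmr7 was the nearest to Nrep (0.55), and Hao2, a peroxisomal hydroxyacid oxidase, the nearest to Cadps (0.48) and Slc34a2 (0.39). The next nearest genes outside the 6 were Hao2 again for Sez6 (0.53), Rprm, a p53-induced cell cycle inhibitor (0.39), and Ccnd1, cyclin D1 (0.40), for Mtmr7, and Cpa1, a pancreatic carboxypeptidase (0.61), for Nrep. Cpa1 (0.43) and the chemokine Cxcl13 (0.43) followed for Tsc22d1, and the anion transporters Slc13a4 (0.43) and Slc13a3 (0.49) for Slc34a2. The median over all genes was 1.26 to 1.52, and since every profile starts from a deep difference, the nearest genes are other genes with deep differences.

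The dose and the tissue were checked on genes outside the 6. Cyp1a1 was 8.38 ± 0.15 (SE) higher in dosed arrays. The mean of 7 measured hepatocyte markers lay between 14.06 and 14.16 in all 10 arrays. These signals lie near the top of the scale (the highest value of all was 15.12, for Alb), so this steadiness is not read as a result. In this list Apoa1 rose by 0.38 ± 0.07 (SE, limma adjusted p = 0.00883) and Cyp2e1 fell by 0.33 ± 0.06 (SE, limma adjusted p = 0.00689). Both calls ended with either RNA quality covariate (adjusted p = 0.0676 to 0.134). Of 6 lung type II markers (5.25 to 5.48 as a list mean), 10 neural markers (4.92 to 5.14), 7 pancreatic acinar markers (5.44 to 5.61), 6 cholangiocyte markers (5.79 to 6.07) and 5 endothelial markers (9.02 to 9.33), 0 rose and 0 fell in limma, and before adjustment p was under 0.05 for 3 higher and 2 lower markers in all. The acinar list did not hold Cpa1, the pancreatic carboxypeptidase named above, which fell by 2.10 ± 0.28 (SE, limma adjusted p = 0.000797; 0.0732 with the GAPDH covariate). All 6 measured macrophage markers had a lower mean in dosed arrays, with a median difference of -0.36, beside -0.004 for all genes. Before adjustment, limma p was under 0.05 for 0 higher and 5 lower macrophage markers. Their mean was 9.39 to 9.73 in vehicle and 8.85 to 9.29 in dosed arrays. Past the threshold 1 of the 6, C1qa, fell (by 0.37 ± 0.08, SE, limma adjusted p = 0.0197), beside 3.11% of all genes. Its adjusted p was 0.0525 without vehicle 1, 0.0516 without dosed 5 and 0.287 with the GAPDH difference. The share of all genes with an unadjusted p under 0.05 was not counted. No unadjusted count of a list is therefore read as a result. Of 10 stellate cell and fibroblast markers, 1 higher and 3 lower had a limma p under 0.05 before adjustment. Their list mean overlapped between groups. Past the threshold Rgs5 rose by 1.33 ± 0.18 (SE, limma adjusted p = 0.000865) and Lrat fell by 0.51 ± 0.10 (SE, limma adjusted p = 0.00889). With the GAPDH difference these became 1.19 ± 0.30 (adjusted p = 0.0927) and -0.53 ± 0.16 (adjusted p = 0.164), and with that of beta-actin Lrat was -0.36 ± 0.11 (adjusted p = 0.133). The GAPDH 3' minus 5' difference was 0.45 ± 0.12 in vehicle and 0.23 ± 0.05 in dosed arrays (SD, n = 5 each). That of beta-actin was 1.59 ± 0.12 and 1.40 ± 0.14. The GAPDH values did not overlap between the groups (0.32 to 0.65 in vehicle, 0.16 to 0.29 in dosed arrays). A model with that covariate therefore cannot tell the dose from RNA quality, and a call that ended with it is not read either way. With the GAPDH difference in the model the 6 genes lay between -2.60 (Sez6) and -1.59 (Slc34a2), and with the beta-actin difference between -2.22 (Sez6) and -1.34 (Cadps). The part of the macrophage markers in these results was not tested.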

How the data were processed

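The values are the authors' deposited log2 signals per probe set, for which the submitters' processing notes name RMA and nothing more. RMA brings all arrays to a common distribution and can shrink large folds. Array medians lay between 6.22 and 6.30, and no 2 arrays were alike (their difference had an SD of 0.17 or more). Of the probe sets, 57 are manufacturer's controls and served as quality measures only. The other 31042 were tested, of which 20826 carry 1 gene, 436 several and the others none by the platform annotation of 2016, with symbols updated by Entrez ID through RefSeq on GRCr8. A gene is followed through its probe set with the highest mean. By the annotation those of Cadps, Tsc22d1 and Slc34a2 come from RefSeq mRNAs. Those of Sez6, Mtmr7 and Nrep, the only probe sets of these genes, come from other GenBank sequences.

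The groups were compared in limma 3.58.1 (R 4.3.3) with moderated variances and no trend, two-sided, and p-values were adjusted by Benjamini-Hochberg over every tested probe set. "Rose" and "fell" mean an adjusted p under 0.05, and an SE after a difference comes from this fit. In a simulation of this comparison over 31042 probe sets, 83.6% of the 67 changed 1.5-fold and 98.5% of the 67 changed 2-fold were recovered, with 9 false calls. It drew independent normal noise for each probe set, with no shift shared by the probe sets of an array. The real arrays can hold such shifts, so these rates may not carry over to them. The labels name no animals, so each p rests on the spread among these samples, which may be technical, and the number of arrays limits the precision. The members, gene lists, named genes (listed genes past the threshold, at most 6 a list, otherwise the 2 brightest, with close relatives and the 3 nearest profiles) and alternatives were chosen with earlier results of these data known. The alternatives took other variance models, the replicate number as a block, only the brighter probe sets, quantile normalisation again, centring on the median, array weights, probe sets averaged per gene, 2 RNA quality covariates, a threshold of 0.01, and each array left out. Same-numbered arrays did not deviate together (correlations of -0.28 to 0.22), so the number is not used as a pairing.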

Additional observations from a re-analysis of the deposited data

Results flagged for a closer look

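In 3 of the 20 sets of 5 values (10 probe sets in 2 groups), 1 array stood apart from the other 4 by more than 0.71 of the whole range, the limit of Dixon's test, where chance alone flags about 1 in 20. All 3 were probe sets whose groups overlapped. The dim Cadps probe set 1390754_at read 4.38 in vehicle 4 and 4.00 to 4.11 in the other vehicle arrays. For Tsc22d1, 1381257_at read 5.94 in dosed 1 and 5.64 to 5.70 in the other dosed arrays, and 1392438_at read 7.03 in dosed 1 and 7.21 to 7.29 in the others. Dosed 1 was also the lowest dosed array on the bright Tsc22d1 probe set.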

How the results depend on the processing

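The differences of the 6 genes kept their sign under all alternatives run, and moved by less than the spread between replicates except in 4 cases: Cadps at -1.06 and Tsc22d1 at -0.46 when their probe sets were averaged, Cadps at -1.34 with the beta-actin covariate and Sez6 at -2.60 with the GAPDH covariate. With 1 array left out they ranged from -2.25 to -1.77 (Cadps), -2.10 to -1.77 (Sez6), -2.03 to -1.66 (Mtmr7), -2.01 to -1.37 (Nrep), -2.12 to -1.90 (Tsc22d1) and -1.78 to -1.42 (Slc34a2). The limma call of Nrep was lost without moderation, with either covariate and without vehicle 3, dosed 1, dosed 2 or dosed 5. That of Slc34a2 was lost with either covariate. Because the same difference chose the 6 genes, neither a kept nor a lost call is read as a test of them. Averaged over the 10 arrays, Cadps lies below the median of all probe sets and has no value under the filter on dim ones. Of all genes 472 rose and 442 fell. The number that fell was 252 without moderation and 676 with array weights, and 305 to 699 with 1 array left out, the highest without vehicle 5. With GAPDH as a covariate 114 rose and 114 fell, with beta-actin 282 and 216, and at a threshold of 0.01 253 and 184. The GAPDH measure did not overlap between the groups, so its part and that of the dose cannot be told apart. With the replicate block, not supported as a pairing, 345 rose and 302 fell. In the exocytosis list 0 fell without moderation, with GAPDH or at 0.01, 1 fell with beta-actin, with the mean of probe sets or (1 to 2) with an array left out, and 1 rose after renewed quantile normalisation. In the myotubularin list 0 fell without moderation or with beta-actin. In the phosphate list 0 rose and 0 fell with GAPDH and 1 fell with the mean of probe sets. The causes were not tested.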

Other observations

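Genes beside the 6 on the chromosome were read in the same fit, a comparison chosen after seeing the data. Of 24 neighbours, the nearest 2 measured genes on either side of each, 1 rose and 0 fell in limma, beside 3.32% and 3.11% of all genes, with differences from -0.11 to 0.67. The risen gene was Pi4k2b, a phosphatidylinositol 4-kinase second from Slc34a2 among the measured genes on its side, at 7.45 ± 0.10 in vehicle and 8.12 ± 0.08 in dosed arrays (SD, n = 5 each), a rise of 0.67 ± 0.07 (SE, limma adjusted p = 0.000113). Anapc4, the measured gene between them, was 8.50 ± 0.18 and 8.49 ± 0.10 (SD, n = 5 each). Ccnd1, one of the genes nearest to Mtmr7, was lower on all 3 of its probe sets, by 1.504 ± 0.251, 1.39 ± 0.21 and 1.40 ± 0.16 (SE). The call of its brightest probe set ended with the GAPDH covariate (limma adjusted p = 0.159), which is not read either way. The probe sets of Ccnd1 lay together where those of Cadps and Tsc22d1 lay apart. The Ccnd1 probe sets had vehicle means of 8.44 to 10.16. Those of Cadps and Tsc22d1 that did not fall were dimmer, at 7.21 or less, so unlike signal levels are compared. Yet Tsc22d1 1392438_at, at 7.21, was brighter in vehicle arrays than Cadps 1368523_at, at 6.99, which differed by -1.996.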
